A study of Mus musculus with 2 samples.

Results

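The clustered protocadherin genes on mouse chromosome 18 were placed against chromatin loops and contact domains mapped by Hi-C in HPC5 cells. They were taken as the annotated genes of chromosome 18 whose symbols start with Pcdha, Pcdhb or Pcdhg. There were 58 of them, with 14 in the alpha, 22 in the beta and 22 in the gamma cluster. All are annotated as protein-coding except Pcdhgb8, a transcribed pseudogene, and the background used below holds 21521 protein-coding genes. HPC5 is a haematopoietic progenitor line derived from mouse bone marrow, and both samples carried wild-type Etv6 (Etv6+/+). In Hi-C, pieces of DNA that are neighbours in a fixed nucleus are ligated and read as pairs. The 2 replicates form 1 group with no mutant or treated sample, so no conditions were compared. The labels do not say whether the replicates came from separate cultures. The lists hold positions and no expression values, so the identity of the cells was not checked, and whether any protocadherin gene was transcribed in them was not measured.

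Clustered protocadherins are cell adhesion proteins known from neurons, where each cell expresses its own choice of isoforms and like isoforms bind each other across cell contacts. In the alpha and gamma clusters each gene starts at its own variable exon with its own promoter, and all genes of a cluster are spliced to the same constant exons at the far end. Beta genes have no such shared exons. In neural cells CTCF and cohesin are known to bring the chosen promoters to enhancers. One set of enhancers lies near the end of the alpha cluster, and another beyond the end of the gamma cluster acts on beta genes. The clusters are read in 1 direction, from the left (lower coordinate) to the right, so the left end of a gene is its start.

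The layout of the annotated genes follows this plan. In GRCm38.p6 the alpha cluster runs from 36930285 to 37188897 (258.6 kb), the beta cluster from 37264998 to 37521419 (256.4 kb) and the gamma cluster from 37661775 to 37841873 (180.1 kb). From end to end they cover 911.6 kb. The right ends of 13 alpha genes lie within 100 bases of each other, and those of 21 gamma genes within 10 bases, while every left end is distinct. Alpha genes are 43.99 to 257.4 kb long and gamma genes 22.33 to 180.1 kb. Beta genes are 2.34 to 5.271 kb long and share no end.

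Loops came in 2 deposited lists per replicate, a medium and a high setting, and domains in 1. A loop has a left and a right anchor, each a bin 5, 10 or 25 kb wide, and its span is the distance between their midpoints. The medium lists hold 1276 loops in replicate 1 and 5729 in replicate 2, of which 48 and 202 lie on chromosome 18. The high lists hold 202 and 3354 loops. They have no loop on 25 kb anchors and as many on 10 and 5 kb anchors as the medium lists. These are 202 and 0 in replicate 1 and 2368 and 986 in replicate 2. Read totals are not part of the lists, so the depth is unknown. A loop missing from the shorter list of replicate 1 is therefore not shown to be absent from those cells.

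Loops were listed at the beta and gamma clusters and not at the alpha cluster. Under the medium setting 6 loops touched or spanned any part of the clusters, 2 in replicate 1 and 4 in replicate 2. In all 6 the right anchor lay between 37840001 and 37889999, a stretch of 50 kb at the end of the gamma cluster and in Diaph1, the gene of an actin-assembling formin. Their left anchors lay at 3 places, the end of the beta cluster, the start of the gamma cluster and the later part of the gamma cluster.

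**Figure D1:**
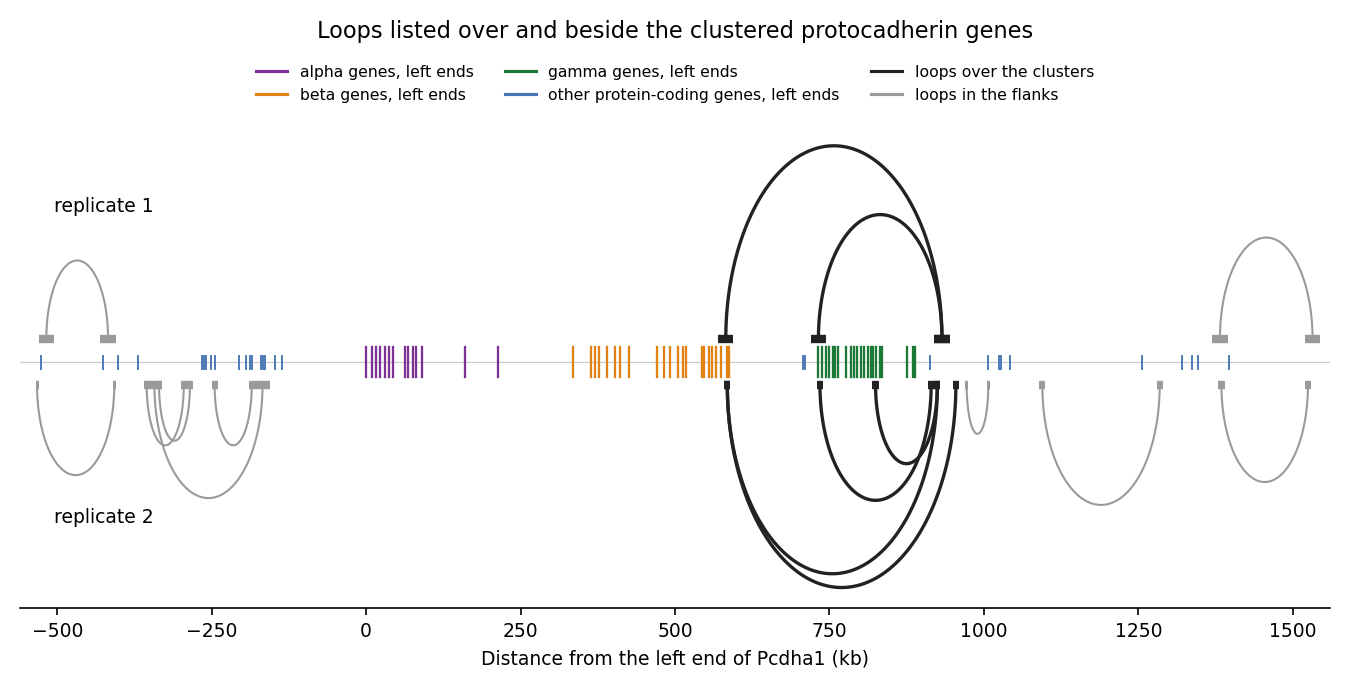
Loops of the medium lists over the clusters (black) and in the 500 kb flanks (grey), with replicate 1 above and replicate 2 below the line, against distance from the left end of Pcdha1 in kb. Thick bars are anchors drawn to width, arc height rises with span, and coloured ticks are the left ends of genes. The right anchors of all 6 black loops lie within a stretch of 50 kb, though not all overlap, and no black loop reaches the alpha genes.

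The loops from the beta cluster started at its last genes. The replicate 1 loop spanned 350 kb, from 37500001 to 37524999 on the left to 37850001 to 37874999 on the right. Its left anchor held both ends of Pcdhb20, Pcdhb21 and Pcdhb22 and the right end of Pcdhb19, all adhesion protein genes of the beta type. Its counterpart in replicate 2 spanned 340 kb, from 37510001 to 37519999 to 37850001 to 37859999, with midpoints 2.5 and 7.5 kb from those of the replicate 1 loop. Its narrower left anchor held both ends of Pcdhb21 and the left end of Pcdhb22. From the same left anchor a second replicate 2 loop of 370 kb reached 37880001 to 37889999. It had no partner in replicate 1 with both midpoints within 20 kb, the distance used to match loops, and had one within 50 kb.

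At the start of the gamma cluster each replicate listed 1 loop. In replicate 1 it spanned 200 kb and joined 37650001 to 37674999, with the left ends of Pcdhga1, Pcdhga2 and Pcdhga3, to 37850001 to 37874999. In replicate 2 it spanned 180 kb and joined 37660001 to 37669999, with the left ends of Pcdhga1 and Pcdhga2, to 37840001 to 37849999. The left midpoints were 2.5 kb apart and the right ones 17.5 kb. This pair thus matched within 20 kb but not within 10 kb, and the right anchors did not overlap. The right anchor of the replicate 2 loop held the right ends of all 22 gamma genes and the left end of Diaph1. That left end lies 1.728 kb beyond the last gamma right end.

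The shortest loop over the clusters was listed in replicate 2 alone. It spanned 100 kb and joined 37750001 to 37759999, with the left ends of Pcdhgb7 and Pcdhga11, to 37850001 to 37859999. It had no replicate 1 partner within 50 kb.

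The right anchors fell mostly inside Diaph1. Of the 6, 5 lay in full within the gene, which runs from 37843601 to 37935622, and the sixth held its left end. The anchors that start at 37850001 begin 8.128 kb beyond the last gamma right end, and the one at 37880001 begins 38.13 kb beyond it. Which exons or introns of Diaph1 they cover was not determined here. When anchors that overlap or touch were joined into groups, a step chosen after the loops were seen, 37840001 to 37874999 held 5 loops, 2 of replicate 1 and 3 of replicate 2. Of 8565 such groups on all chromosomes, 164 (1.91%) held at least 5 loops. Loops found in both lists count once in each here. By replicate 2 loops alone, 6.96% of groups held at least as many as this one. The group at the end of the beta cluster held 3 loops, and 15.6% of groups held at least as many, or 26.3% by replicate 2 loops alone. No loop joined an anchor at 1 cluster to an anchor at another cluster.

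The whole number tagged n in the lists, which the files do not define, was not high for these loops. In these lists n was lower for longer spans and higher for wider anchors, so each loop was set beside loops of the same replicate and width with spans within 50 kb of its own. The 350 kb loop of replicate 1 had n = 25, against a median of 26 over 111 such loops. Its 340 kb counterpart in replicate 2 had n = 21, against 22 over 199 loops. The 200 kb loop of replicate 1 had n = 23, with 83% of 401 like loops higher. The 180 kb loop of replicate 2 had n = 20, with 86.2% of 581 higher. The 100 kb loop had n = 32, against a median of 34. The 370 kb loop of replicate 2 had n = 19, with 69.4% of 183 like loops higher. The loops from the gamma start thus ranked low among loops of like span. Of those from the beta end, the matched pair ranked near the middle and the 370 kb loop below it. The 4 replicate 2 loops, all on 10 kb anchors, were also in its high list. The 2 replicate 1 loops, both on 25 kb anchors, were not in the high list of that replicate, which holds no loop on 25 kb anchors. Being in a high list thus went with anchor width and is not further evidence for a loop.

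Counted by either end, 26 of the 58 members lay in an anchor of one replicate or the other (44.8%), beside 22.5% of all protein-coding genes and 32.1% of the 511 on chromosome 18. The alpha cluster gave 0 of 14, the beta cluster 4 of 22 and the gamma cluster 22 of 22. In replicate 1 the counts were 0, 4 and 3, where 6.67% of all genes and 9.2% of chromosome 18 genes lay at an anchor. In replicate 2 they were 0, 2 and 22, where 19.8 and 28.2% did. The gamma count of replicate 2 rests on the right end that the genes share and on the 1 anchor that holds it, so it is 1 observation and not 22. On loops found in both replicates the same 26 members were at an anchor, beside 5.83% of all genes and 13.7% on chromosome 18. For gamma genes other than Pcdhga1, Pcdhga2 and Pcdhga3 this again rests on that end, which lies in a replicate 2 anchor alone, and its loop matched one of replicate 1 within 20 kb but not within 10 kb. Under the high setting the count was 24, beside 9.53 and 16.4%. Of these, 22 were the gamma genes, again by the right end they share, and 2 were neighbouring beta genes in 1 anchor.

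Counted by left ends alone, the share of members was close to that of other genes with the lists joined. A member's left end is its start, while the background, taken without strand, mixes gene starts and far ends. There were 8 members with the left end in an anchor (13.8%), beside 14% of all protein-coding genes and 16.6% of those on chromosome 18. In replicate 1 there were 6 (10.3%), above the 4.01% of all genes and 5.28% on chromosome 18, and these 6 lay in 2 anchors. In replicate 2 there were also 6 (10.3%), below the 12 and 14.1% there. The 8 were Pcdhb20, Pcdhb21 and Pcdhb22, which gives 3 of 22 beta genes, and Pcdhga1, Pcdhga2, Pcdhga3, Pcdhgb7 and Pcdhga11, which gives 5 of 22 gamma genes. The left ends of 4 of them, Pcdhb21, Pcdhb22, Pcdhga1 and Pcdhga2, lay in anchors of both replicates. Pcdhb20 and Pcdhga3 were in replicate 1 anchors alone, which are 25 kb wide. The left end of Pcdhb20 lay 5.737 kb and that of Pcdhga3 4.336 kb from the nearest replicate 2 anchor. Pcdhgb7 and Pcdhga11 were in a replicate 2 anchor alone, 76.62 and 80.77 kb from the nearest anchor of replicate 1. Neighbouring genes share anchors, so these genes are not independent of each other.

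**Figure D2:**
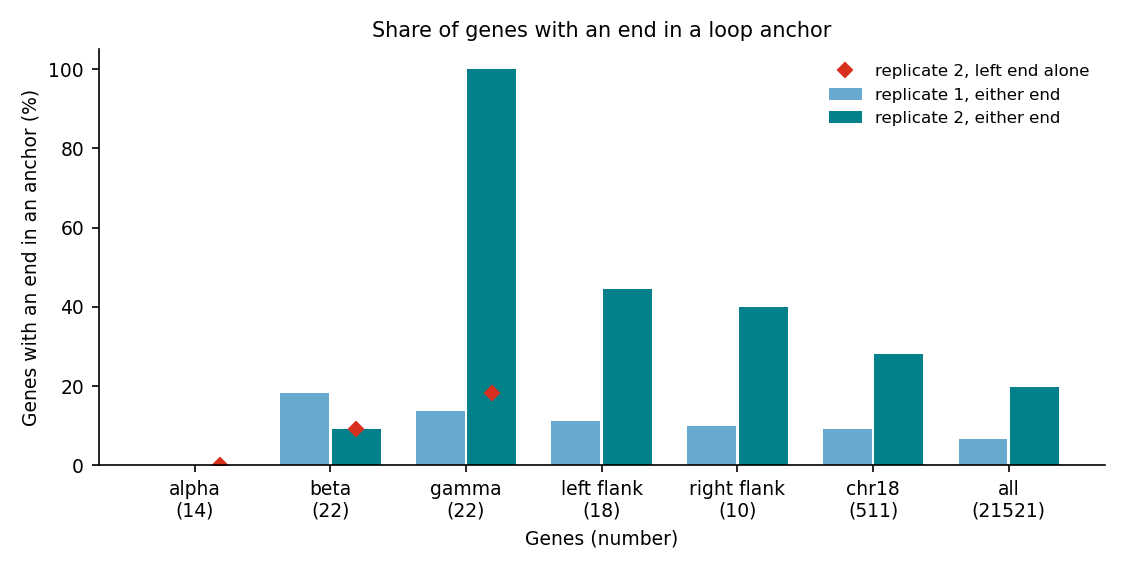
Percentage of genes with either end in a loop anchor, for each cluster, the flanking protein-coding genes within 500 kb, chromosome 18 and all protein-coding genes, with the number of genes in brackets. Bars show each replicate and diamonds the left end alone in replicate 2. The gamma bar of replicate 2 stands at 22 of 22 genes, while only 4 of 22 left ends lay in its anchors.

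The alpha cluster lay in a stretch of chromosome without any listed anchor. It reached from 36775000 to 37500000 in both lists together, 725 kb, and held all 14 alpha genes and 18 beta genes, Pcdhb1 to Pcdhb18. The protein-coding genes Hars2, a mitochondrial histidyl-tRNA synthetase gene, and Zmat2 lay at its left end. In replicate 1 alone the stretch was 975 kb long, and in replicate 2 alone 735 kb. Such stretches are not rare, since 635 of 9566 stretches between anchors (6.64%) were at least 725 kb long, 22 of them on chromosome 18, and they held 25.7% of all protein-coding genes. This one held 34 annotated protein-coding genes in full against a median of 4 (quartiles 2 and 9), and 39 of the 635 held as many or more. Of the 34, 32 were the members themselves, and the 14 alpha genes overlap each other. The stretch was looked at because it holds the alpha cluster, so its gene count is only a description. Over all chromosomes there were 0.9931 anchors per Mb in replicate 1 and 4.459 in replicate 2. At those rates few anchors would fall in the 258.6 kb of the alpha cluster, and its count of 0 is given as a description.

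The distance from a left end to the nearest anchor was longest for alpha and shortest for gamma genes. With the lists joined, the median was 208.1 kb for alpha genes (155.3 to 356.3 kb), 71.48 kb for beta genes (0 to 235 kb) and 11.65 kb for gamma genes (0 to 35.17 kb). Over all protein-coding genes it was 41.51 kb, and on chromosome 18 it was 28.9 kb. The left ends of this background again mix gene starts and far ends. In replicate 1 alone the medians were 439, 71.48 and 41.71 kb, beside 160.8 kb on chromosome 18 and 410 kb over all protein-coding genes. In replicate 2 alone they were 208.1, 81.48 and 14.15 kb, beside 32.37 and 43.62 kb. The order of the clusters was thus the same in both replicates, and no alpha gene lay closer than the chromosome 18 median in either. Against all genes the alpha median of replicate 1 was close to the usual distance, and Pcdha1, Pcdhac1 and Pcdhac2 lay closer than it. Over 100 kb from any anchor were the left ends of 22 members (37.9%), beside 32.6% of all genes and 26.8% of those on chromosome 18. The 22 were the alpha genes and Pcdhb1 to Pcdhb8, which all lie in the same stretch without anchors and are not separate observations.

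**Figure D3:**
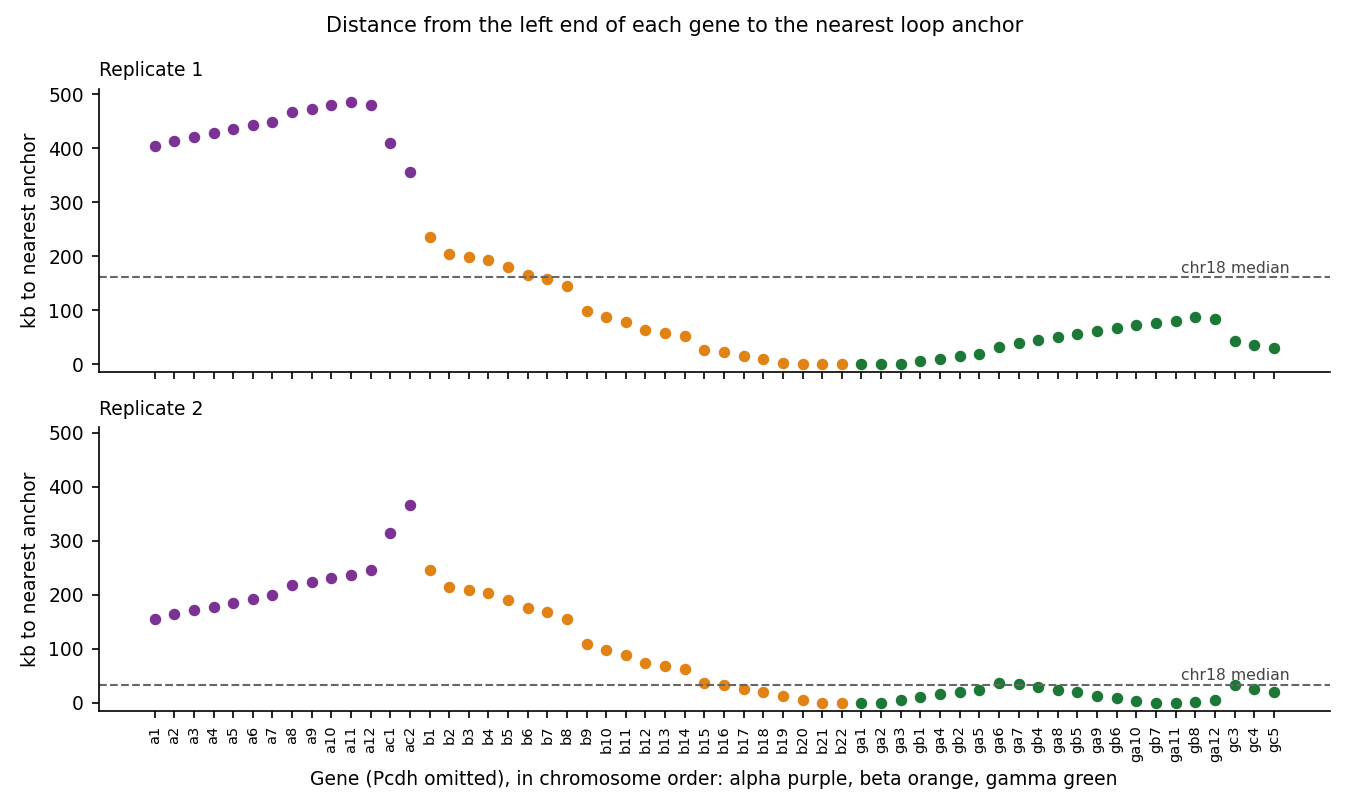
Distance in kb from the left end of each of the 58 genes to the nearest anchor, in chromosome order, for replicate 1 (top) and replicate 2 (bottom). The dashed line is the median over the protein-coding genes of chromosome 18, 160.8 kb in replicate 1 and 32.37 kb in replicate 2. Alpha genes lie above it in both, and late beta and early gamma genes reach 0.

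Within the beta cluster the distance followed the order of the genes. Pcdhb1, which stands apart at the left of the cluster, lay 235 kb from the nearest anchor, and Pcdhb8 lay 144.7 kb from it. Pcdhb14 lay at 52.34 kb and Pcdhb18 at 10.54 kb. The left end of Pcdhb19 lay 3.003 kb outside the replicate 1 anchor that held its right end. One anchor on the right thus set the distance of every beta gene.

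The C-type genes, which have their own variable exons next to the constant exons and are known to be expressed more constantly than the other isoforms, had no left end in an anchor. Pcdhac1 and Pcdhac2 in the alpha cluster lay 315.1 and 356.3 kb from the nearest anchor, with the lists joined, farther than the other 12 alpha genes (155.3 to 245.2 kb). This order did not hold in replicate 1, where Pcdhac2, at 356.3 kb, was the closest alpha gene and Pcdhac1 lay at 409.9 kb. Pcdhgc3, Pcdhgc4 and Pcdhgc5 in the gamma cluster lay 33.59, 24.92 and 20.45 kb from it. Among the other gamma genes 4 of 12 of the A type and 1 of 7 of the B type had the left end in an anchor. The 5 C-type genes are too few for their count of 0 to be set against these.

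Loops spanned gamma genes and no gene of the other clusters. A loop was counted as spanning a gene when its anchors lay on both sides of the whole gene. In all, 22 of 58 members were spanned (37.9%), beside 27% of all protein-coding genes and 33.1% of those on chromosome 18, and the 22 were the gamma genes. These overlap, share their right end and all lie under the same loops from the beta end, so this is 1 observation and not 22. Pcdhga1, Pcdhga2 and Pcdhga3 were spanned by 1 loop of replicate 1 and 2 of replicate 2, the loops from the beta end. From Pcdhgb1 to Pcdhga11 each gene was spanned by 2 loops in each replicate, the loop from the gamma start being added in replicate 1. Pcdhgb8, Pcdhga12, Pcdhgc3, Pcdhgc4 and Pcdhgc5 were spanned by 2 loops of replicate 1 and 3 of replicate 2. The 180 kb loop of replicate 2 spanned no whole gamma gene, since its right anchor held their right ends. Because the gamma genes share their right end, the count of spanning loops can only stay level or rise from left to right. The rise is thus set by the layout of the genes and is not a separate result.

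**Figure D4:**
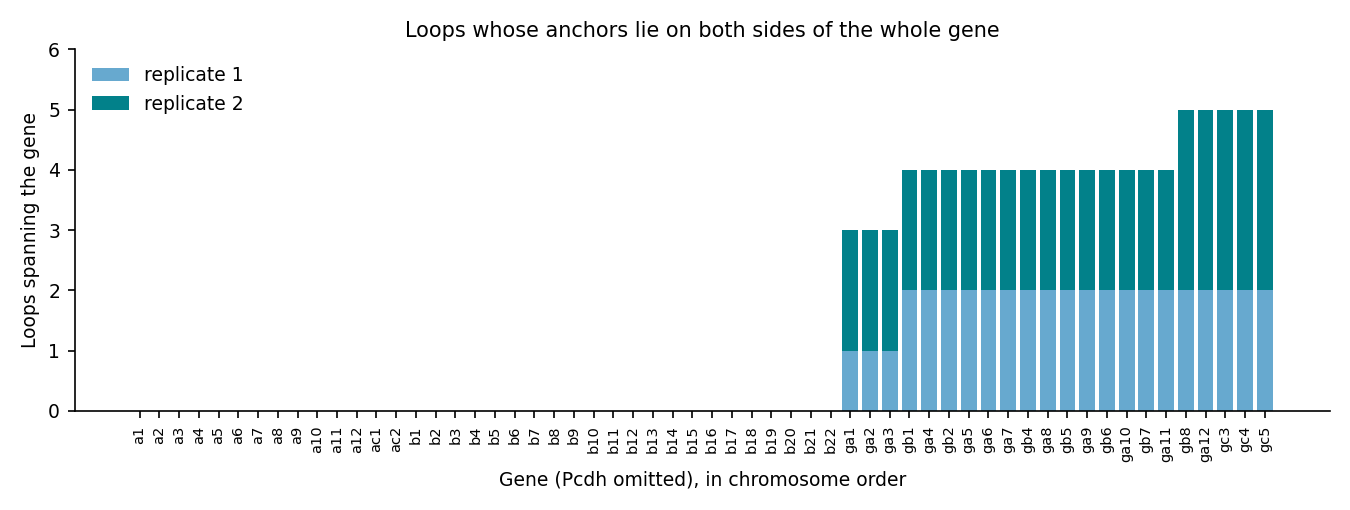
Number of loops of the medium lists whose anchors lie on both sides of each of the 58 genes, in chromosome order, stacked by replicate. The count is 0 for every alpha and beta gene, 3 for Pcdhga1 to Pcdhga3, 4 from Pcdhgb1 to Pcdhga11 and 5 from Pcdhgb8 to Pcdhgc5.

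Genes lying between the members shared these positions. Slc25a2, a mitochondrial carrier gene, and Taf7, the gene of a subunit of the general transcription factor TFIID, lie between the beta and gamma clusters. Neither had an end in an anchor, with left ends 12.62 and 9.51 kb from the nearest, and both were spanned by 1 loop of replicate 1 and 2 of replicate 2, those from the beta end. The pseudogene Gm8242 lay in the replicate 1 anchor at the gamma start. Gm37013, Gm38666 and Gm38667 are annotated from within the alpha cluster to the gamma right end at 37841873, and each had that end in the replicate 2 anchor. They are not counted among the members. The pseudogenes Gm36858, Gm18150, Gm19035, Gm18529, Gm20162 and Gm24401 and the long non-coding RNA gene Gm29994 had no end in an anchor.

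The flanks held loops on both sides. Of 28 protein-coding genes within 500 kb, 14 had an end in an anchor (50%, beside the 22.5 and 32.1% above), with 10 of 18 on the left and 4 of 10 on the right. Replicate 1 gave 3 of the 28 and replicate 2 gave 12. Neighbouring genes share anchors in the flanks too, so the 14 are not independent of each other. On the left the nearest gene to the alpha cluster, Zmat2, has its right end 130.6 kb before Pcdha1 and was at no anchor. The nearest anchor, at 36750001 to 36774999 in replicate 2, held ends of Ik, Wdr55, Dnd1 and Hars, a histidyl-tRNA synthetase gene, and was joined over 175 kb to 36575001 to 36599999, away from the clusters. No left-flank loop reached into the clusters. Replicate 1 listed 1 loop there, of 100 kb, with Hbegf, a growth factor gene, at its right anchor, and replicate 2 had a partner of 125 kb whose anchors held no protein-coding gene end.

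On the right the flank began with Diaph1 itself. A replicate 2 loop of 35 kb ran from 37900001 to 37904999, within Diaph1, to 37935001 to 37939999. That anchor held the right end of Diaph1 and the left end of Hdac3, a histone deacetylase gene. These ends lie 1.349 kb apart, and which end of either gene is its start was not determined here. This loop had no replicate 1 partner. The right end of Rnf14, a ubiquitin ligase gene, lay in anchors of both replicates, with loops of 150 kb in replicate 1 and 140 kb in replicate 2. Each replicate 2 loop of the right flank was on 5 or 10 kb anchors and so also in the high list. Over the clusters and both flanks 4 of 4 replicate 1 loops had a partner in replicate 2, and 4 of 12 replicate 2 loops had one in replicate 1. Over all chromosomes these shares were 80.6 and 18.2%.

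No domain overlapped the clusters in either list. Replicate 1 listed 3 domains, with 0 on chromosome 18, and replicate 2 listed 339, with 7 there. The nearest domains of replicate 2 ended 1375.3 kb before Pcdha1 and began 1278.1 kb beyond the gamma cluster. The latter, at 39120001 to 39485000, overlapped Arhgap26 and Nr3c1, the glucocorticoid receptor gene. Few genes lay in any domain, 3.98% of all protein-coding genes and 2.54% of those on chromosome 18, so the absence of one here was the usual case in these lists.

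Of 12 protocadherin genes outside the clusters 1 had an end in an anchor, Pcdh1, which lies in the right flank, with a loop of 190 kb in replicate 2. Pcdh12, in the same flank, had none. Of 14 genes known to act on the clusters or on chromatin loops, 5 had an end in an anchor, 2 in replicate 1 and 4 in replicate 2. Rad21, Smc1a and Stag2 encode cohesin subunits, Nipbl a cohesin loader and Smchd1 a chromatin protein that silences clustered protocadherin genes. Stag2 had loops of 100 kb in replicate 1 and 110 kb in replicate 2. Nipbl had 1 of 125 kb in replicate 1, and Rad21, Smc1a and Smchd1 had loops of 125, 100 and 300 kb in replicate 2. These lists are small, and their shares (8.33 and 35.7%) are given beside the 22.5% of all genes as a description.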

How the data were processed

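Hi-C of 2 replicates of 1 group was used. The authors deposited, per replicate, loop lists under 2 settings and a domain list whose name gives bins of 5000 bp. Per the submitters' processing notes HiC-Pro 2.11.1 and mm10 were used. For the loop and domain callers, the name is not given in the sources used here. The deposited values are positions, with a number n and a value qBL per loop that the files do not define; qBL was not used. Loop positions are the deposited ones, and 1 was added to each domain start.

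Gene positions are those of RefSeq on GRCm38.p6 (mm10), for 19 autosomes and X. Left out were 345 genes with scaffold coordinates. The table gives no strand, and no sequence of this region was used. Lookups were written in Python 3.11.15 with NumPy 2.4.6 and tested on simulated anchors. No test of significance was made, because there is 1 group.

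Named are the first and last genes of each cluster, members at an anchor, C-type genes, genes between members, flanking genes at loops touching or nearest the clusters, and members of both short lists at an anchor. Pcdhb8, Pcdhb14, Pcdhb18, Hbegf, Rnf14, Hdac3 and the genes of the nearest domain and anchor were chosen after their values were seen. The members and lists were chosen with earlier results of these data known. Alternatives were the high setting, each replicate alone, shared loops, gene bodies, wider anchors, other flanks and other matching distances.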

Additional observations from a re-analysis of the deposited data

How the results depend on the processing

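The alpha count of 0 was the same under all 7 alternatives tried, but none of them could have changed it. Using fewer loops cannot add an anchor. The nearest anchor lay 155.3 kb from any alpha gene, beyond the margins of 5 and 10 kb, and the gene bodies lie in the stretch without anchors. In either replicate 0 domains overlapped the clusters. The count of 26 members at an anchor ranged from 7 to 24 with 1 replicate left out, was 17 with distinct ends counted once, 9 without the right end the gamma genes share, and 8 for left ends alone. The last 2 were chosen after seeing the data. The gamma count of 22 was 3 without replicate 2. Both counts of 6 loops, touching and over the clusters, ranged from 2 to 4 with 1 replicate left out. The 14 flanking genes at an anchor became 9 under the high setting and 4 on shared loops, and 3 to 12 with 1 replicate left out. The 22.5% of all genes became 9.53% under the high setting, 5.83% on shared loops, 36.5% within 10 kb of an anchor, and 6.67 to 19.8% with 1 replicate left out. The median distance of left ends, 34.38 kb, became 36.78 to 74.32 kb. Of 8 loops of the region with a partner, 4 kept one within 10 kb and 4 by overlapping anchors, and 4 lay over the clusters. The depth is unknown, and replicate 1 had fewer loops by a factor of 4.49. No paired analysis was possible because there is only 1 group.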
